A study of Danio rerio with 48 samples.

Results

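Genes that photoreceptors of the eye use to detect light were measured in RNA from whole brains of adult zebrafish (Danio rerio). The set held 35 listed genes, matched by symbol without regard to letter case. Where the table of gene names drops a final a or b, every gene ID of that symbol was taken. Of the 35 genes, 31 matched 37 of the 32520 gene IDs in the libraries, and opn1sw1, gngt1, pde6a and rcvrn2 matched none. Symbols in capitals follow human spelling, but every gene is a zebrafish gene. Where several IDs share a symbol, the last digits of the Ensembl ID follow it: RPE65_7480 is ENSDARG00000007480 and RPE65_94752 is ENSDARG00000094752.

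In rods and cones, light changes the shape of an opsin, which switches on the G protein transducin. Transducin activates the phosphodiesterase PDE6, which breaks down cyclic GMP and so closes cyclic nucleotide-gated channels of the outer segment. Opsin kinases, arrestins and RGS9 end the response, and the retinoid cycle returns the chromophore to opsin. The pineal gland of fish holds light-sensing cells of its own, which share some of these genes with the retina and also make melatonin.

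The libraries came from 48 fish of the AB line in 12 groups of 4. In F0, females and males coded PH, read here as fish that met permethrin (10 µg/L) while young, were set against females and males coded SCA, read as their controls. In F1 and F2, PH fish were unexposed descendants of that lineage, and SCA fish again served as controls. The labels do not spell out the codes. Whether the 4 fish of a group had separate parents or tanks is not stated, and p-values then cover only the spread among the fish sampled. Each library was 1 whole dissected brain sample with no cell sorting, and fewer cells of a type cannot be told apart from less RNA per cell. Permethrin is a pyrethroid insecticide that acts on voltage-gated sodium channels.

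Libraries held 4802827 to 10032850 counts in genes. Of 17 IDs of neuronal, glial and myelin genes listed as brain markers, 15 were read in every library and 2 (SLC1A2_52138 and SLC17A7_90106) were at 0 in at least 1, with SNAP25_20609 at 3864 to 6297 counts per 1000000 counts in genes (CPM) and mbpa at 4769 to 18869 CPM. Levels are CPM scaled with TMM factors over all 48 libraries, and fold changes come from 1 model per generation. CPM is not per gene length, so levels are set side by side only within a gene. A count of 0 allows up to 3 counts, which is 0.266 to 0.588 CPM depending on the library and covers counting error only. The 2 fish that stood apart were both F0 controls, the female F0_F_SCA_18 and the male F0_M_SCA_6, which are described first. They are set apart because most members were highest of all 48 fish in 1 or the other. Other fish were high too. The PH male F0_M_PH_19 had the transducin gene GNAT2 at 19.2 CPM, against 17.6 CPM in F0_M_SCA_6. For GNAT1, the values were 37.1 and 68.4 CPM. The number at the end of a fish's name is the number in its label.

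**Figure D1:**
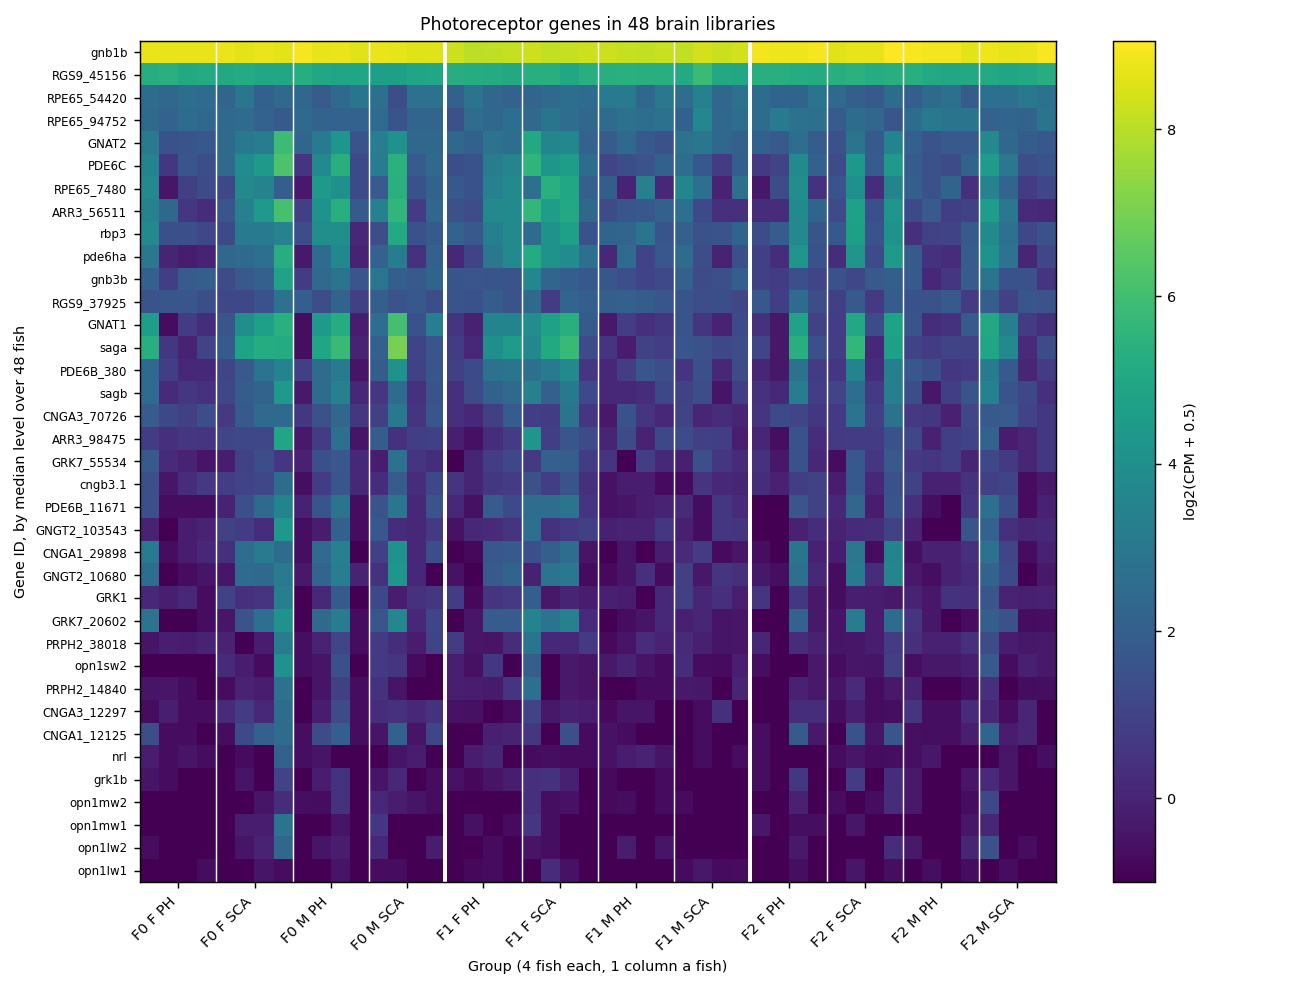
Level of each of the 37 photoreceptor gene IDs (rows, ordered by median level over 48 fish) in each fish (columns, 4 per group), as log2(CPM + 0.5). The rows of gnb1b and RGS9_45156 vary little across fish, though gnb1b is lower in F1. Most other rows are high in single fish of several groups.

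Most of these genes were at low levels in most brains and high in a few. Of 37 IDs, 19 had a median of at least 1 CPM over the 48 fish, 18 had a lower median and 4 of those a median of 0. For 24 IDs the highest fish was more than 10 times the median. In 22 IDs the highest of all 48 fish was F0_F_SCA_18, in 9 it was F0_M_SCA_6, and in 6 another fish. Reads of an ID were present in every fish for 19 IDs.

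F0_F_SCA_18 held far more lens RNA than any other fish. The 60 matched lens IDs, which encode crystallins and fibre membrane proteins, summed to 61344 CPM in this fish, against 14.6 to 214 CPM in the other 47, and made up 6.17% of its counts in genes. Of the 60 lens IDs, 47 were highest in this fish and 3 (crygm2d5, crygm2d9 and crygm2d21) were at 0 in all 48. The 3 lens genes of highest mean level, all crystallins, were CRYBB2, CRYBB3 and crygm3. CRYBB2 stood at 10016 CPM in F0_F_SCA_18 against 0 to 30.1 CPM in the others, CRYBB3 at 6290.4 CPM against 0 to 16.8 CPM, and crygm3 at 5446 CPM against 0 to 17.6 CPM. For all 3, the next highest fish was F0_F_SCA_16.

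Many rod and cone genes also had their highest level in F0_F_SCA_18. The 5 cone opsin IDs summed to 28.4 CPM, GNAT2, the cone transducin, was at 58.6 CPM, and PDE6C, the cone phosphodiesterase, at 75.1 CPM. The cone transcription factor six7, which is not a member, was at 12.9 CPM. Pineal genes were not high in this fish: aanat2, the pineal enzyme that makes the precursor of melatonin, was at 0.742 CPM and ASMT, the last enzyme of melatonin synthesis, at 1.36 CPM. The 7 pineal IDs summed to 47.5 CPM here, within the 31.6 to 132.2 CPM of the 46 fish other than the 2 set apart.

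F0_M_SCA_6 was also high in many members. For 8 of 37 members both this fish and F0_F_SCA_18 were among the 3 highest fish, as for PDE6C, at 42.9 CPM here, ARR3_56511, a cone arrestin, at 48.3 CPM here and 68.6 CPM in F0_F_SCA_18, and GRK7_20602, an opsin kinase, at 12 and 16.8 CPM. GNAT1, the rod transducin, was at 68.4 CPM here and 41.7 CPM in F0_F_SCA_18, and saga, an S-antigen arrestin, at 127 CPM here and 35.5 CPM there. The retinoid cycle gene RPE65_7480 was at 41.7 CPM, ASMT at 42.1 CPM and aanat2 at 14.9 CPM, each the highest of all 48 fish. Of the 7 pineal IDs, 2 were highest in this fish. The 7 summed to 111.6 CPM here, within the 31.6 to 132.2 CPM of the 46 fish other than the 2 set apart. This sum need not follow the melatonin genes. In F0_M_PH_12 it was 93.3 CPM, with ASMT at 0.151 CPM and aanat2 at 1.97 CPM. In F0_M_SCA_6 the cone opsins summed to 1.47 CPM, above the upper quartile of 1.01 CPM over the 48 fish (median 0.457). The lens IDs summed to 16.4 CPM there, near the low end of the 14.6 to 213.7 CPM seen outside F0_F_SCA_18. What tissue each fish's reads came from was not tested.

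Members high in the same fish as ASMT were compared by rank, given here as a description with no test, since ASMT was chosen for it after the values were seen. The 12 fish with the most ASMT were 5 of 24 PH fish and 7 of 24 SCA fish. They came from every group of F0, and none was a PH male of F1 or a male of F2. Of the 12 fish with the most GRK7_55534, an opsin kinase, 11 were among these. The count was 10 for GNAT1, GNGT2_10680, GRK7_20602, RPE65_7480 and rbp3, it was 8 for GNAT2 and 3 for GNGT2_103543, and it was 1 for RPE65_54420. With GNAT2 in place of ASMT, the count was 10 for GNAT1, gnb3b, PDE6C, GRK7_20602 and ARR3_56511, 7 for GNGT2_103543 and 0 for RPE65_54420.

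**Figure D2:**
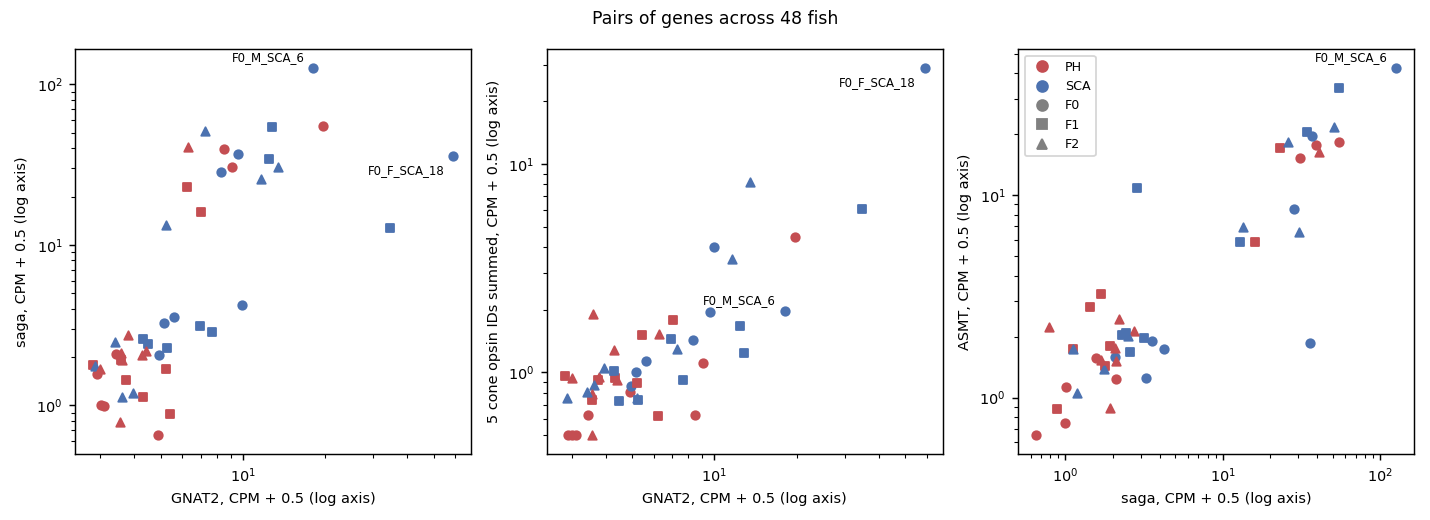
The arrestin saga against GNAT2, the summed cone opsins against GNAT2, and ASMT against saga in 48 fish, each as CPM + 0.5 on log axes, with colour for lineage and marker shape for generation. F0_M_SCA_6 lies highest for saga and ASMT, at 127 and 42.1 CPM, and F0_F_SCA_18 highest for GNAT2 and the cone opsins, at 58.6 and 28.4 CPM.

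The cone opsins were near the limit of counting in most brains. The blue cone opsin opn1sw2 ranged from 0 to 16.4 CPM (median 0.247) and was at 0 in 10 fish. The red cone opsins opn1lw1 and opn1lw2 had medians of 0 and highest values of 0.726 CPM in F1_F_SCA_6 and 4.45 CPM in F0_F_SCA_18. The green cone opsins opn1mw1 and opn1mw2 also had medians of 0, and reached 6.68 CPM in F0_F_SCA_18 and 1.79 CPM in F2_M_SCA_3. Summed over the 5 IDs, 4 fish were at 0 and 13 at 1 CPM or more. The highest after F0_F_SCA_18 were F2_M_SCA_3 at 7.71 CPM and F1_F_SCA_4 at 5.58 CPM. No cone opsin ID passed the filter on low counts in any generation, so none entered the tests given below. Without the filter, where all 37 IDs entered, edgeR called none for lineage.

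The highest sum of cone opsins was that of a control fish in 4 of the 6 pairs of groups. In F0 the sum was at 0, 0, 0.122 and 0.123 CPM in PH females, against 0.636, 0.934, 1.46 and 28.4 CPM in SCA females, and at 0, 0.303, 0.613 and 3.98 CPM in PH males, against 0.36, 0.503, 1.47 and 3.48 CPM in SCA males. In F0 females the groups did not overlap, at 0 to 1 counts in PH females and 5 to 230 counts in SCA females. Of single genes tested, 1.32% lay fully lower in PH females. In F1 it was at 0.119, 0.392, 0.444 and 1.28 CPM in PH females, against 0.227, 0.735, 1.16 and 5.58 CPM in SCA females, and at 0.235, 0.416, 0.465 and 1.01 CPM in PH males, against 0.237, 0.415, 0.521 and 0.949 CPM in SCA males. In F2 it was at 0, 0.419, 0.448 and 1.03 CPM in PH females, against 0.25, 0.374, 0.796 and 3.01 CPM in SCA females, and at 0.292, 0.441, 0.786 and 1.42 CPM in PH males, against 0.255, 0.305, 0.551 and 7.71 CPM in SCA males. In the other 5 pairs the groups overlapped, and no test was made.

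Transducin genes split into uneven members and gnb1b, which was even within each generation. GNAT1 ranged from 0.134 to 68.4 CPM (median 2.46) and GNAT2 from 2.32 to 58.6 CPM (median 4.68), with a read in every fish for both. Among subunits, gnb1b, a beta subunit that the brain also uses widely, ranged from 266 to 532 CPM (median 408). It differed by generation: all F1 fish lay at 266 to 338 CPM, below all F0 fish (376 to 478 CPM) and all F2 fish (393 to 532 CPM). The source of this step was not tested. The cone beta subunit gnb3b ranged from 0.587 to 27.6 CPM (median 2.68). Of the transducin gamma subunit IDs, GNGT2_103543 was highest in F0_F_SCA_18 at 20.2 CPM and GNGT2_10680 in F0_M_SCA_6 at 19 CPM, with medians of 0.631 and 0.598 CPM.

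The 4 phosphodiesterase IDs were all uneven. PDE6C, the cone catalytic subunit, ranged from 0.909 to 75.1 CPM (median 3.86), and pde6ha, an inhibitory subunit, from 0.303 to 37.8 CPM (median 3.18); both were highest in F0_F_SCA_18. PDE6B, a rod catalytic subunit, has 2 IDs: PDE6B_11671 reached 11.1 CPM in F0_F_SCA_18, and PDE6B_380 reached 16.9 CPM in F0_M_SCA_6.

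Among genes that end the light response, the arrestins differed in which fish was highest. The cone arrestin IDs ARR3_56511 and ARR3_98475 reached 68.6 and 30.8 CPM in F0_F_SCA_18, with medians of 3.48 and 1.2 CPM. The S-antigen arrestin saga reached 127 CPM in F0_M_SCA_6, a value 62.2 times its median, and sagb reached 20.6 CPM in F0_F_SCA_18. Opsin kinases were low in most fish: medians were 0.539 CPM for GRK1, 0.11 for grk1b, 0.488 for GRK7_20602 and 1.01 for GRK7_55534. RGS9 speeds the shut-off of transducin in photoreceptors and is also used in the brain, and RGS9_45156 was even across fish, at 25.4 to 57.7 CPM (median 36.1). RGS9_37925 ranged from 1.12 to 6.18 CPM (median 2.52).

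Retinoid cycle genes showed both patterns within 1 symbol. The symbol RPE65, named for the isomerase of the retinal pigment epithelium, has 3 IDs in the table, all taken for the listed gene rpe65a. Which of the 3 is used in the pigment epithelium was not tested. RPE65_7480 ranged from 0.267 to 41.7 CPM (median 3.6). RPE65_54420 ranged from 2.2 to 10.1 CPM (median 5.23) and RPE65_94752 from 2.35 to 12.2 CPM (median 5.09), both highest in F1_M_SCA_14. The retinoid carrier gene rbp3 ranged from 0.628 to 34.5 CPM (median 3.24). Of the retinal pigment epithelium list, which holds 15 other IDs, the sum ranged from 17.8 to 55.6 CPM, with the highest sum in F0_M_SCA_6 and 28.2 CPM in F0_F_SCA_18.

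Outer segment, channel and transcription factor genes were low. The disc rim protein IDs PRPH2_14840 and PRPH2_38018 had medians of 0.245 and 0.444 CPM and were highest in F0_F_SCA_18. The rod transcription factor nrl had a median of 0.128 CPM and was at 0 in 17 fish. Of the channel subunits, CNGA3_70726 ranged from 0.312 to 7.83 CPM (median 1.37) and cngb3.1, a cone channel subunit, from 0.105 to 5.32 CPM (median 0.935). CNGA1_29898 reached 17.5 CPM in F0_M_SCA_6, CNGA1_12125 5.32 CPM and CNGA3_12297 5.44 CPM in F0_F_SCA_18. The 3 IDs whose highest fish was at most 5 times the lowest were gnb1b, RGS9_45156 and RPE65_54420.

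**Figure D3:**
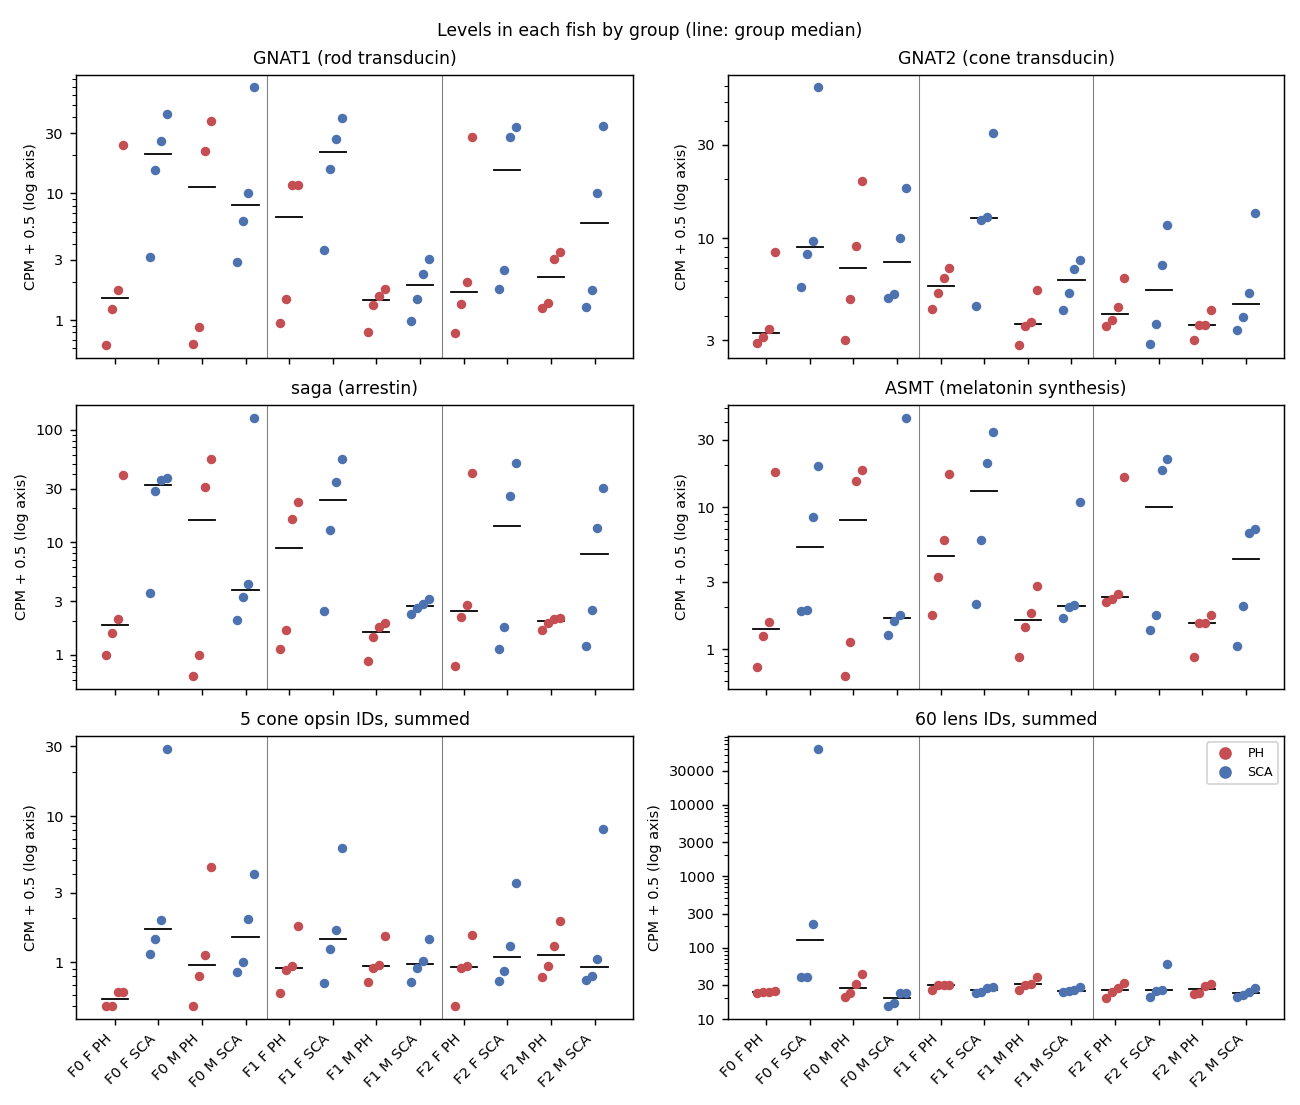
GNAT1, GNAT2, saga, ASMT, the 5 summed cone opsin IDs and the 60 summed lens IDs in each fish as CPM + 0.5 on log axes, by group, with PH in red, SCA in blue and a line at the group median. GNAT1 and saga spread widely within most groups, and 1 control F0 female stands alone for lens genes at 61344 CPM.

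In F0, several rod and cone genes had lower values in exposed females than in control females, but none passed the test. GNGT2_103543 was at 0, 0.371, 0.488 and 0.492 CPM in PH females, against 0.729, 1.17, 1.4 and 20.2 CPM in SCA females, and the groups did not overlap. Its log2 fold change was -4.09 ± 1.29 (SE, edgeR adjusted p = 0.761). ARR3_98475 was at 0.801, 0.975, 0.988 and 1.23 CPM in PH females, against 1.65, 1.7, 1.75 and 30.8 CPM in SCA females, again without overlap, with a log2 fold change estimated at -3.20 ± 1.10 (edgeR adjusted p = 0.85). In both, the highest value is that of F0_F_SCA_18, and the other 3 control females lay above the PH females by few counts. GNGT2_103543 had 0 to 4 counts in PH females and 6 to 11 in those 3 control females. ARR3_98475 had 6 to 10 counts and 13 to 15 counts. GNGT2_103543 passed the filter on low counts mainly through SCA fish. Leaving out 1 fish at a time, log2 fold changes ran from -4.46 to -1.65 for GNGT2_103543 and from -3.55 to -0.77 for ARR3_98475.

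GNAT2 stood at 2.4, 2.59, 2.93 and 7.99 CPM in PH females, against 5.09, 7.82, 9.11 and 58.6 CPM in SCA females, with a log2 fold change estimated at -2.38 ± 0.85 (edgeR adjusted p = 0.867). GNAT1 was at 0.134, 0.732, 1.2 and 23.6 CPM in PH females, against 2.67, 14.7, 25.3 and 41.7 CPM in SCA females. For both genes the groups overlapped through F0_F_PH_10, the highest of the PH females. That fish also had saga at 38.9 CPM and ASMT at 17.1 CPM.

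Of 37 member IDs, 27 passed the filter on low counts in F0. None of the 27 was called in F0 females by edgeR at an adjusted p under 0.05, where 0% of the 18081 genes tested were called, and none by DESeq2 or limma voom. At an unadjusted p under 0.05, 8 of 27 members were lower, against 2.98% of all genes lower at that threshold. Fold changes were below 0 for 23 of 27 members, against 49.3% of all genes, and the members' median was -1.61, against 0.003 over all genes. Many members were high in the same fish, so counts over members, here and in every comparison below, are not counts of independent observations. In 3 of 27 members all PH females lay below all SCA females, against 1.32% of all genes. These were GNGT2_103543, ARR3_98475 and GRK1. GRK1 had 1 to 5 counts in PH females and 7 to 75 in SCA females. Like GNGT2_103543, it passed the filter on low counts mainly through SCA fish. The entry of both into the test was thus not independent of that gap. By limma voom, 1 of 27 members had an unadjusted p under 0.05. Without F0_F_SCA_18, no member had an unadjusted p under 0.05 and the median was -0.89, with 21 of 27 below 0. Without F0_F_PH_10, 17 of 29 members had an unadjusted p under 0.05, and the median was -3.03. The count was 13 of 29 without F0_F_SCA_14 and 5 of 29 without F0_F_PH_9, F0_F_PH_15 or F0_F_PH_16. Beside these values, the lens IDs summed to 22.7 to 24.1 CPM in PH females and to 37.8 to 61344 CPM in SCA females. The part of eye tissue in the result was not tested.

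In F0 males, values of both groups overlapped for each of the 27 members tested, while 1.6% of all genes lay fully lower and 1.95% fully higher in PH males. GNAT2 was at 2.51, 4.39, 8.58 and 19.2 CPM in PH males and at 4.43, 4.65, 9.46 and 17.6 CPM in SCA males. GNAT1 was at 0.151, 0.377, 21.1 and 37.1 CPM in PH males and at 2.4, 5.6, 9.68 and 68.4 CPM in SCA males. Both genes were highest in F0_M_PH_19 among PH males and in F0_M_SCA_6 among SCA males.

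The 3 members of smallest p in F0 males were RGS9_45156, gnb1b and CNGA3_70726. RGS9_45156 was at 29.3, 29.4, 31.8 and 37.6 CPM in PH males, against 25.4, 25.7, 30.1 and 31.2 CPM in SCA males, a log2 fold change estimated at 0.17 ± 0.10 (SE, edgeR adjusted p = 0.875). gnb1b was at 387, 425, 428 and 478 CPM in PH males, against 376, 378, 410.3 and 428 CPM in SCA males, with a log2 fold change estimated at 0.09 ± 0.07 (edgeR adjusted p = 0.883). Both ranges overlapped. CNGA3_70726 was at 1.0, 1.06, 2.33 and 4.48 CPM in PH males, against 0.959, 1.37, 2.77 and 7.83 CPM in SCA males, with a log2 fold change estimated at -0.54 ± 0.64 (edgeR adjusted p = 0.912), which turned to 0.40 without F0_M_SCA_6.

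In F0 males 0 of 27 members were called by edgeR, against 0% of all genes, and 0 by DESeq2 or limma voom. None had an unadjusted p under 0.05, against 6.06% of all genes. The members' median was -0.21, with 20 of 27 below 0 against 51.9% of all genes, and its sign depended on single fish: it was 0.49 without F0_M_SCA_6, 0.022 without F0_M_PH_12, 0.062 without F0_M_PH_22, -0.45 without F0_M_SCA_10 and -1.12 without F0_M_PH_19. PH males were sequenced on lane L4 and SCA males on lane L2, per the file names, so lane and lineage cannot be told apart in F0 males, while all F0 females were on lane L4. Over both sexes, 0 of 27 members were called by edgeR, DESeq2 or limma voom, against 0% of all genes by edgeR. At an unadjusted p under 0.05 by edgeR, 1 was lower, against 3.82% of all genes. This was GNGT2_103543, at -2.15 ± 0.89 (edgeR adjusted p = 0.599). The next smallest p were those of RGS9_45156, at 0.15 ± 0.07, and GNAT2, at -1.22 ± 0.59. Leaving out 1 fish at a time, 0 members (without F0_F_SCA_18) to 11 of 29 (without F0_F_PH_10) had an unadjusted p under 0.05. The members' median over both sexes was -0.99, -1.55 without F0_F_PH_10, -1.49 without F0_M_PH_19, -0.55 without F0_F_SCA_18, -0.38 without F0_M_SCA_6, and -0.078 with 14 of 27 below 0 without both F0_F_SCA_18 and F0_M_SCA_6. For a difference between the sexes in the lineage effect, edgeR, DESeq2 and limma voom called no member, against 0% of all genes by edgeR, and 2 had an unadjusted p under 0.05 by edgeR, against 3.2% of all genes.

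**Figure D4:**
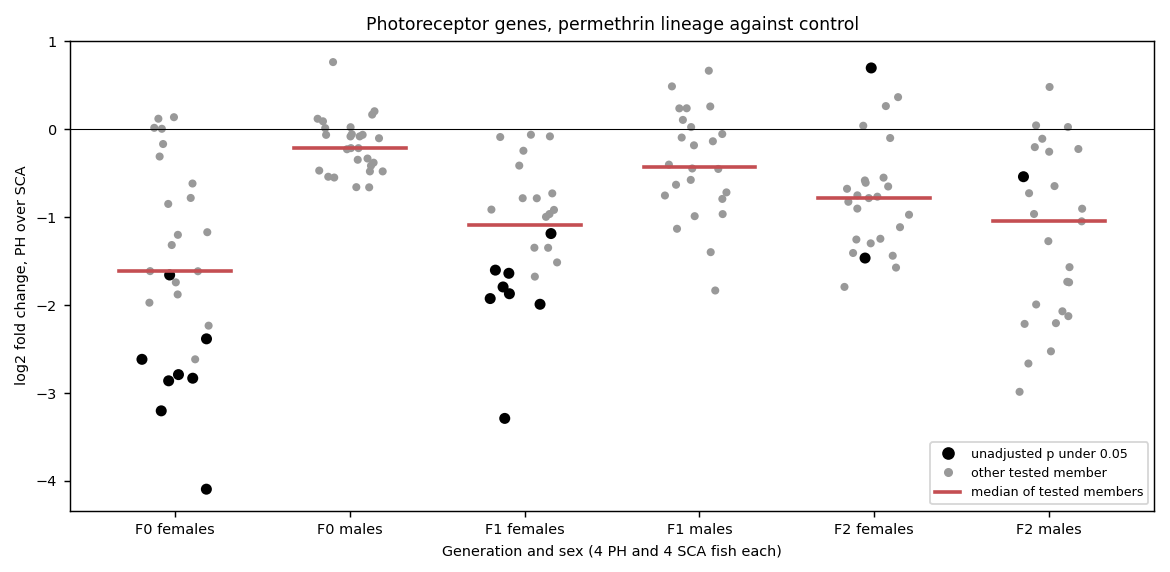
Log2 fold change, PH over SCA, of every photoreceptor gene ID that passed the filter on low counts, in each generation and sex, with large black points for an unadjusted p under 0.05 and a red line at the median. Medians run from -1.61 in F0 females to -0.21 in F0 males, and edgeR called no member after adjustment.

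In F1, PH females had fold changes below 0 for every member tested, and edgeR called none of them. ARR3_98475 was at 0.177, 0.392, 0.748 and 1.19 CPM in PH females, against 1.31, 2.04, 2.63 and 18.4 CPM in SCA females, without overlap, a log2 fold change estimated at -3.29 ± 0.87 (SE, edgeR adjusted p = 0.211; DESeq2 adjusted p = 0.0123). GNAT2 was at 3.81, 4.7, 5.71 and 6.52 CPM in PH females, against 3.97, 11.9, 12.3 and 34.2 CPM in SCA females, a log2 fold change estimated at -1.60 ± 0.46 (edgeR adjusted p = 0.279). gnb3b was at 2.5, 2.55, 2.56 and 2.66 CPM in PH females, against 2.95, 3.47, 4.36 and 12.4 CPM in SCA females, without overlap, at -1.19 ± 0.39 (edgeR adjusted p = 0.361). The highest value in all 3 was that of F1_F_SCA_4, and without it the log2 fold changes were -1.67 for ARR3_98475, -0.85 for GNAT2 and -0.48 for gnb3b.

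That control female had PDE6C at 47.7 CPM, six7 at 6.25 CPM and a lens sum of 23.5 CPM, with ASMT at 5.36 CPM. GNAT1 was at 0.444, 0.98, 11.1 and 11.2 CPM in PH females, against 3.06, 15.2, 26.3 and 38.8 CPM in SCA females, and these groups overlapped.

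Of 24 members tested in F1, 0 were called in females by edgeR, against 0.0663% of the 18094 genes tested, 1 (ARR3_98475, lower) by DESeq2, against 0.486% of all genes called lower by DESeq2, and 0 by limma voom. At an unadjusted p under 0.05, 8 of 24 were lower, against 4.43% of all genes. All 24 fold changes were below 0, against 53.4% of all genes, with a median of -1.09, against -0.02 over all genes. They rest on the same 4 PH and 4 SCA females, and many members were high in the same fish, so they are not 24 independent results. In 2 of 24 members all PH females lay below all SCA females, against 2.65% of all genes. Leaving out 1 fish at a time, the median lay between -1.62 and -0.83, and the count of 8 was 13 of 27 without F1_F_PH_10, 5 of 25 without F1_F_PH_1 and 4 of 24 without F1_F_SCA_4. Lens IDs summed to 24.7 to 29.9 CPM in PH females and to 22.7 to 27.4 CPM in SCA females. The 7 pineal IDs summed to 37.9 to 75.8 CPM in PH females and to 31.6 to 76.4 CPM in SCA females.

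In F1 males, GNAT1 was low in every fish. GNAT1 was at 0.312, 0.824, 1.05 and 1.26 CPM in PH males, against 0.475, 0.969, 1.83 and 2.53 CPM in SCA males. It overlapped between the lineages. The arrestin saga did not: it was at 0.378, 0.937, 1.28 and 1.41 CPM in PH males, against 1.78, 2.09, 2.35 and 2.64 CPM in SCA males, chosen here for that gap after its values were seen. Fully lower in PH males was 1 of 24 members, saga, against 2.12% of all genes, and fully higher was 1 of 24, RGS9_37925, against 2.32%. The 3 members of smallest p were RGS9_37925, cngb3.1 and GNAT2. RGS9_37925 was at 2.67, 3.41, 3.64 and 3.78 CPM in PH males, against 1.69, 2.08, 2.14 and 2.53 CPM in SCA males, without overlap, at 0.67 ± 0.34 (SE, edgeR adjusted p = 0.584). The channel subunit cngb3.1 was at 0.116, 0.208, 0.353 and 0.378 CPM in PH males, against 0.105, 0.521, 0.593 and 0.969 CPM in SCA males, and GNAT2 at 2.32, 3.06, 3.23 and 4.91 CPM in PH males, against 3.78, 4.75, 6.43 and 7.2 CPM in SCA males, both with overlap. The log2 fold change of cngb3.1 was -0.99 ± 0.65 (edgeR adjusted p = 0.694) and that of GNAT2 was -0.72 ± 0.48 (edgeR adjusted p = 0.709).

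In F1 males 0 of 24 members were called by edgeR, against 0.105% of all genes, and 0 by DESeq2 or limma voom. None had an unadjusted p under 0.05, against 8.94% of all genes. The median was -0.42, with 17 of 24 below 0, against 52.3% of all genes. It was -0.19 without F1_M_PH_4, -0.22 without F1_M_SCA_5 and -0.13 without F1_M_SCA_14. Over both sexes, 0 of 24 were called by edgeR, against 0.68% of all genes, 1 (GNAT2, lower) by DESeq2, against 1.11% of all genes called lower by DESeq2, and 0 by limma voom. At an unadjusted p under 0.05, 6 were lower, against 6.41% of all genes. Members at that threshold in either direction ran from 3 (without F1_M_PH_4 or F1_F_SCA_4) to 9 of 25 (without F1_F_SCA_8). By limma voom they were 2. GNAT2 ranged from 2.32 to 6.52 CPM in the 8 PH fish (median 4.26) and from 3.78 to 34.2 CPM in the 8 SCA fish (median 6.81), a log2 fold change estimated at -1.16 ± 0.33 (edgeR adjusted p = 0.148; DESeq2 adjusted p = 0.0243; edgeR adjusted p = 0.0322 without F1_F_SCA_8). The other members of smallest p over both sexes were gnb3b, at -0.82 ± 0.28, and ARR3_98475, at -1.71 ± 0.61. For a difference between the sexes in the lineage effect, none of the 3 tools called a member, against 0% of all genes by edgeR, and 2 had an unadjusted p under 0.05, against 5.11% of all genes.

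In F2, RPE65_94752 was the member of smallest p over both sexes, and the only one of the 3 smallest whose fold change was above 0. It was at 5.3, 5.98, 6.5 and 8.57 CPM in PH females, against 2.71, 3.25, 4.48 and 5.44 CPM in SCA females, a log2 fold change estimated at 0.70 ± 0.25 (SE, edgeR adjusted p = 0.151). It was at 5.35, 6.83, 6.86 and 7.93 CPM in PH males, against 4.0, 4.27, 4.33 and 6.71 CPM in SCA males, at 0.48 ± 0.25 (edgeR adjusted p = 0.604). The groups overlapped in both sexes, and over both the value was 0.59 ± 0.18 (edgeR adjusted p = 0.094; DESeq2 adjusted p = 0.0453).

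The other members named for F2 females had fold changes below 0. CNGA3_70726 was at 0.977, 1.05, 1.63 and 1.89 CPM in PH females, against 1.13, 1.37, 6.16 and 6.64 CPM in SCA females, at -1.46 ± 0.57 (SE, edgeR adjusted p = 0.174). The retinoid carrier gene rbp3 was at 1.95, 2.54, 3.34 and 12.7 CPM in PH females, against 2.49, 2.88, 16.8 and 25.9 CPM in SCA females, at -1.25 ± 0.79 (edgeR adjusted p = 0.368). Both overlapped between the groups. GNAT1 was at 0.291, 0.837, 1.49 and 27.3 CPM in PH females and 1.25, 1.99, 27.7 and 33.2 CPM in SCA females, and GNAT2 at 3.05, 3.29, 3.91 and 5.76 CPM in PH females and 2.38, 3.11, 6.77 and 11.1 CPM in SCA females, both with overlap.

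In F2 females 0 of 25 members were called by edgeR, against 0.137% of the 17505 genes tested, and 0 by DESeq2 or limma voom. At an unadjusted p under 0.05, 1 was lower and 1 higher, against 11.7% and 9.2% of all genes. The median was -0.78, with 21 of 25 below 0, against 47.3% of all genes. PH females 3 and 4 were sequenced on lane L2 and all other F2 fish on lane L3, per the file names. With lane as a term in the model the median was -0.17, and without these 2 fish it was also -0.17, with 16 of 26 below 0 and none at an unadjusted p under 0.05. No member was free of overlap in F2 females, against 3.25% of all genes fully lower and 5.92% fully higher, or in F2 males, against 2.09% and 2.56%. Without F2_F_PH_5, the median was -2.12 and 14 of 26 members had an unadjusted p under 0.05, while 1 had it without F2_F_PH_3, F2_F_PH_4, F2_F_PH_16, F2_F_SCA_6 or F2_F_SCA_9. The median was -0.45 without F2_F_SCA_6, -0.49 without F2_F_SCA_9, -1.18 without F2_F_SCA_4 and -1.20 without F2_F_SCA_8.

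In F2 males, GNAT2 was at 2.5, 3.07, 3.09 and 3.77 CPM in PH fish, against 2.9, 3.44, 4.71 and 12.9 CPM in SCA fish. GNAT1 was at 0.734, 0.876, 2.52 and 2.96 CPM in PH fish, against 0.762, 1.2, 9.55 and 33.5 CPM in SCA fish. For both genes the groups overlapped, and F2_M_SCA_3 was the highest fish. By smallest p the named members were RPE65_54420, rbp3 and RPE65_94752. RPE65_54420 was at 3.35, 3.46, 4.99 and 6.13 CPM in PH males, against 5.86, 5.92, 6.4 and 7.71 CPM in SCA males, at -0.54 ± 0.24 (SE, edgeR adjusted p = 0.533). rbp3 was at 0.786, 1.47, 1.61 and 3.09 CPM in PH males, against 1.79, 2.29, 6.37 and 13.1 CPM in SCA males, at -1.74 ± 0.88 (edgeR adjusted p = 0.594).

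In F2 males 0 of 25 members were called by edgeR, against 0.0171% of all genes, and 0 by DESeq2 or limma voom. RPE65_54420 alone was lower at an unadjusted p under 0.05, against 3.8% of all genes. Members at that threshold in either direction were 4 of 26 without F2_F_PH_5 or F2_M_SCA_7, 3 of 26 without F2_M_SCA_10, 4 of 25 by DESeq2 and 2 of 25 by limma voom. The median was -1.05, with 22 of 25 below 0, against 51.4% of all genes, and -0.44 with 15 of 25 below 0 without F2_M_SCA_3. Over both sexes, 0 of 25 were called by edgeR, against 1.1% of all genes, 1 (RPE65_94752, higher) by DESeq2, against 2.47% of all genes called higher by DESeq2, and 0 by limma voom. At an unadjusted p under 0.05, 5 members were lower and 1 higher, against 12.3% and 11.4% of all genes. The count of 6 was 17 of 26 without F2_F_PH_5, 2 of 25 without F2_M_SCA_3, 2 of 26 without F2_F_SCA_6, 3 without F2_F_PH_3, F2_F_PH_4, F2_F_PH_16, F2_M_PH_6 or F2_F_SCA_9, 9 of 25 by DESeq2 and 1 of 25 by limma voom. CNGA3_70726 was at -1.26 ± 0.42 (SE, edgeR adjusted p = 0.113) and rbp3 at -1.49 ± 0.59 (edgeR adjusted p = 0.155). The members' median over both sexes was -1.16, -0.56 without F2_M_SCA_3, -1.77 without F2_F_PH_5, -0.73 with lane as a term and -0.71 without the 2 fish of lane L2. For a difference between the sexes in the lineage effect, none of the 3 tools called a member, against 0.0114% of all genes by edgeR, and 1 had an unadjusted p under 0.05, against 5.67% of all genes.

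In F1, several photoreceptor genes were higher in females than in males. Of 24 members tested, 9 rose in F1 females relative to F1 males and none fell (edgeR, adjusted p 0.0235 to 0.0494), against 1.97% of all genes called higher and 1.48% called lower. They include genes of several steps of the light response: the rod transducin GNAT1, the phosphodiesterases PDE6B_11671, PDE6B_380 and PDE6C, the cone opsin kinase GRK7_20602, the arrestins saga, sagb and ARR3_56511, and the channel subunit cngb3.1. These members are named after their values were seen. Male counts were at most 5 for GRK7_20602, 7 for cngb3.1 and 9 for PDE6B_11671. These IDs passed the filter on low counts through the females. GNAT1, at 3 to 24 counts in males, also passed it mainly through the females. The entry of all these IDs into the test was thus not independent of the difference. GNAT1 had its lowest, median and highest fish at 0.444, 11.2 and 38.8 CPM in females against 0.312, 1.01 and 2.53 CPM in males (8 fish each), and 6 of 8 females lay above every male. Its log2 fold change was 3.32 ± 0.70 (SE, edgeR adjusted p = 0.0284).

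For GRK7_20602 the lowest, median and highest fish were 0, 3.32 and 11.2 CPM in females against 0, 0.249 and 0.581 CPM in males, with a log2 fold change estimated at 3.56 ± 0.74 (SE, edgeR adjusted p = 0.0249). The arrestin saga stood at 0.621, 13.9 and 54.2 CPM in females against 0.378, 1.6 and 2.64 CPM in males, at 3.42 ± 0.78 (edgeR adjusted p = 0.0354). PDE6C was at 2.15, 10.4 and 47.7 CPM in females against 1.19, 2.69 and 5.59 CPM in males, at 2.11 ± 0.48 (edgeR adjusted p = 0.0323). In each of the 9, the sexes overlapped, and 2 or 3 of the 8 females lay below the highest male. Fold changes of the other 5 were 2.53 ± 0.54 for PDE6B_11671, 2.51 ± 0.57 for ARR3_56511, 1.96 ± 0.44 for sagb, 1.84 ± 0.49 for PDE6B_380 and 1.75 ± 0.40 for cngb3.1.

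**Figure D5:**
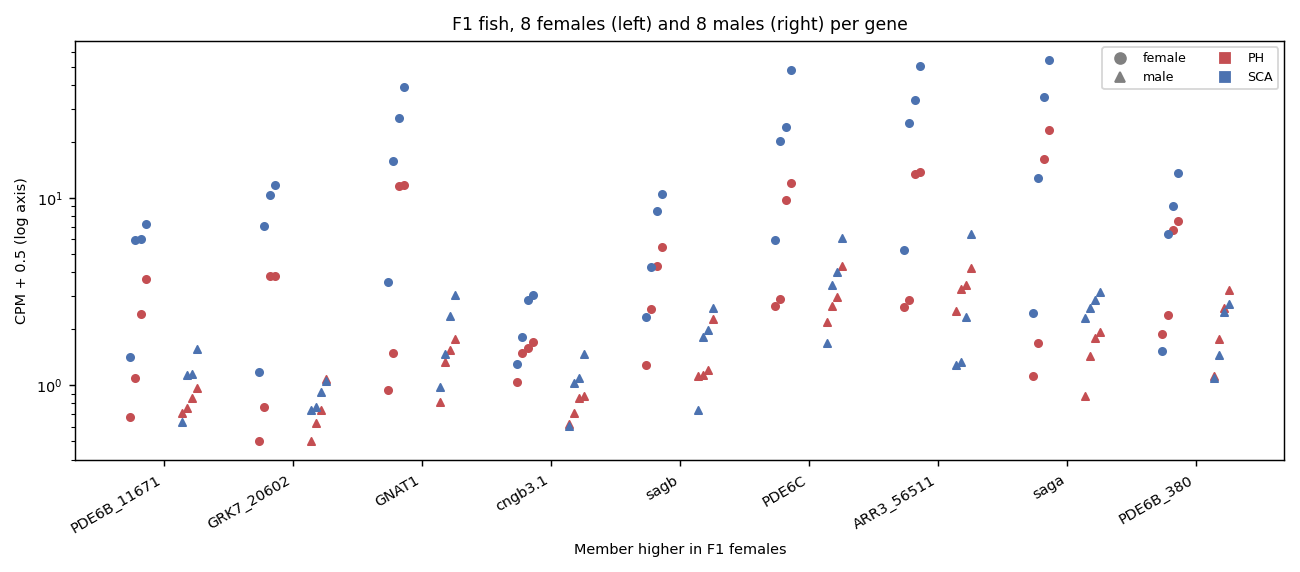
The 9 members that rose in F1 females, in 8 females (circles, left) and 8 males (triangles, right) of F1, as CPM + 0.5 on a log axis, with PH in red and SCA in blue. For GNAT1, 6 of 8 females lie above all males, and females of both lineages are among the high fish.

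The members' median difference between F1 females and males was 1.57, with 4 of 24 below 0, against 47.2% of all genes. The call depended on single fish and on the tool. DESeq2 called 12 members higher in females, against 4.28% of all genes, limma voom 1, against 2.12%, and edgeR in a model of all 48 libraries 0, against 2.27%. Without 1 fish, edgeR called 0 (without F1_F_PH_9, F1_M_PH_6 or F1_M_PH_7), 1 (F1_M_SCA_10), 2 (F1_F_SCA_7), 3 (F1_F_PH_10 or F1_F_SCA_4) or 5 (F1_M_PH_8, F1_M_SCA_14 or F1_M_SCA_12), and 8 to 10 without any of the other 6, while the members' median lay between 1.13 and 1.73. Lens IDs summed to 22.7 to 29.9 CPM in F1 females and to 23.2 to 37.8 CPM in F1 males. ASMT was at 1.2, 5.35 and 33.4 CPM in females against 0.378, 1.39 and 10.4 CPM in males, and aanat2 at 0.621, 1.52 and 4.73 CPM in females against 0.831, 1.71 and 2.67 CPM in males. Sequencing lanes of the F1 libraries are not known, and their part was not tested.

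In F0, the only member called between the sexes was RGS9_45156 (1 of 27, against 4.85% of all genes). The SCA males were on lane L2 and all other F0 fish on lane L4. Lane was thus not balanced between the F0 sexes, and its part was not tested. It was at 31.7, 35.1 and 41.8 CPM in females against 25.4, 29.7 and 37.6 CPM in males for the lowest, median and highest of 8 fish each, a log2 fold change estimated at 0.27 ± 0.07 (SE, edgeR adjusted p = 0.0472). DESeq2 and limma voom called 1 member each, and leaving out 1 fish at a time edgeR called 1 without F0_M_PH_12 or F0_M_SCA_17 and 0 otherwise. In F2, edgeR, DESeq2 and limma voom called 0 of 25 members between the sexes, against 0.114% of all genes by edgeR, and 2 had an unadjusted p under 0.05, both higher in females, against 9.11% of all genes in either direction. Whether the female excess of F1 differed from that of F0 or F2 was not tested.

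Other photoreceptor genes, a list of 55 IDs that includes guanylate cyclases, recoverins, visual cycle enzymes and transcription factors, were tested beside the members. None of those tested was called by edgeR for lineage in either sex of any generation. The list's median log2 fold change was -0.66 over 33 IDs in F0 females, -0.36 over 26 IDs in F1 females and -0.39 over 28 IDs in F2 females, and -0.18, -0.07 and -0.45 in F0, F1 and F2 males. Between the F1 sexes, 4 of 26 were called, all higher in females, against 1.97% of all genes called higher. The photoreceptor and pineal homeobox factor crx was at 3.35 ± 0.67 (SE, edgeR adjusted p = 0.0192). PDE6H was at 3.40 ± 0.87 (edgeR adjusted p = 0.0486), gucy2d at 1.11 ± 0.28 (edgeR adjusted p = 0.0384) and UNC119 at 0.84 ± 0.22 (edgeR adjusted p = 0.0445). The last 3 lay near the threshold of 0.05, in a comparison where the calls of members fell to 0 without some single fish. Between the F0 sexes, where lane was not balanced, 1 of 33 was called, against 4.85% of all genes. This was the retinol dehydrogenase RDH8_28048, at -0.61 ± 0.16 (edgeR adjusted p = 0.0421). Of the genes called in F1, crx had 0.266, 3.14 and 7.56 CPM in females against 0, 0.374 and 0.422 CPM in males as lowest, median and highest fish. PDE6H had 0 to 11 counts in F1 males. Both crx and PDE6H passed the filter on low counts through the females, so their entry into the test was not independent of the difference.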

How the data were processed

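Brains of 48 zebrafish were sequenced, 4 per generation, sex and lineage. The deposited values are counts of reads per Ensembl gene, made by the authors from paired-end BGISEQ-500 reads of RNA extracted with a TriPrep kit, per the labels' protocols. The submitters' processing notes name STAR 2.7, HTSeq 0.11.2, DESeq2 1.24.0 and the GRCz11 (danRer11) build, and the strand setting is not given in the sources used here. How alike IDs of 1 symbol are, such as the RPE65 IDs, is not known here, and such IDs may share reads. Summary lines that name no gene were left out, and genes held 31.4% to 36.6% of all counted reads in a library.

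Levels are CPM with TMM factors over 48 libraries. The 16 libraries of a generation entered 1 model with 4 group means (edgeR 4.0.16, R 4.3.3), using filterByExpr, TMM and the robust quasi-likelihood test, which was tested on simulated data. P-values were adjusted by Benjamini-Hochberg over all genes tested, with a threshold of 0.05, and standard errors were computed from the test statistic. 1 gene of the list the members were taken from is not reported here, so relations across fish are not reported either. The members and lists were chosen with earlier results of these data known. Named in each comparison are the 3 members of smallest p, with GNAT1 and GNAT2 per fish, and other genes are named where stated. The lists were lens, pineal, retinal pigment epithelium, other photoreceptor, other retinal cell, nonvisual opsin and brain marker genes. No 2 libraries of a group agreed within sampling noise: over 72 pairs, chi-square divided by its degrees of freedom was at least 4.44.

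Alternatives were RLE size factors, no filter on low counts, DESeq2 1.42.0, limma 3.58.1 voom, 1 model of 48 libraries, a model of sex only, a lane term, a replicate block, CPM without TMM, each library left out, and 2 chosen after seeing the data: both F0 fish that stood apart left out, and the F2 libraries of lane L2 left out.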

Additional observations from a re-analysis of the deposited data

Results flagged for a closer look

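GNAT1, GNAT2, the cone opsin sum and the lens sum were each examined in the 12 groups of 4 fish on the log2(CPM + 0.5) scale, 48 sets in all. In 4 of these, 1 fish lay far from the other 3, where chance alone flags about 1 in 20. GNAT2 did so in F0_F_PH_10 at 7.99 CPM. The 5 cone opsin IDs summed to 28.4 CPM in F0_F_SCA_18 and to 7.71 CPM in F2_M_SCA_3, each apart from the rest of its group. The lens IDs summed to 24.7 CPM in F1_F_PH_1, the lowest of a group whose other 3 fish lay close together. On this scale the lens sum of F0_F_SCA_18, at 61344 CPM, was not among the 4, as its group also held a fish at 214 CPM.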

How the results depend on the processing

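No photoreceptor member was called for lineage by edgeR with RLE size factors, without the filter on low counts or in the model of 48 libraries. DESeq2 called 1 member in F1 females, 1 over both sexes in F1 and 1 over both sexes in F2. Between the F1 sexes, the count of 9 was 5 without the filter (against 0.808% of all genes called higher), 1 by limma voom and 0 in the model of 48 libraries. Between the F0 sexes, the count of 1 was 0 without the filter, 0 in the model of 48 libraries and 0 without both fish that stood apart. Without both, the members' median was -0.90 in F0 females, 0.63 in F0 males and -0.078 over both F0 sexes. Leaving out 1 library at a time, counts ran from 0 to 1 between the F0 sexes, 0 to 10 between the F1 sexes and 0 to 1 for lineage over both F1 sexes. The medians for lineage ran from -3.03 to -0.89 in F0 females, -1.12 to 0.49 in F0 males, -2.12 to -0.45 in F2 females, -1.38 to -0.44 in F2 males and -1.77 to -0.56 over both F2 sexes. Members at an unadjusted p under 0.05 ran from 0 to 1 in F0 males and in F1 males and, for the sex difference in the lineage effect, from 0 to 6 in F0, 0 to 5 in F1 and 0 to 1 in F2, and from 1 to 5 between the F2 sexes.

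The named value that turned sign was CNGA3_70726 in F0 males, at 0.40 without F0_M_SCA_6 and 0.39 without both fish (-1.12 to 0.40 over all single leave-outs). The cause was not tested. Of the values for single genes, 796 kept their direction and side of the threshold, 192 fell short of it and 4 newly passed it. The alternative pseudocount planned for relations across fish was not run.

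Females of both F0 groups share the numbers 15 and 16 only, and with 2 pairs these fish are taken to share a number and no more: same-numbered fish correlated at 0.122 and 0.126, crossed ones at 0.0305 and 0.214. With this replicate block, on 4 libraries with 1 residual degree of freedom, 11 of 25 members were called, all lower, against 0.285% of all genes called lower, and the median was -2.24. As the shared numbers are not taken as pairs, these calls are not read as a result. The block also left out F0_F_PH_10, the PH female with GNAT1 at 23.6 CPM. Without that fish alone, members at an unadjusted p under 0.05 in the main model went from 8 of 27 to 17 of 29. 10 members, among them the cone opsins, passed the filter on low counts in no generation.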

Other observations

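Nonvisual opsins sense light outside the rods and cones, and many are used in the fish brain. Of their 25 IDs, 12 were tested in F1, and 1 was called for lineage over both sexes. This was tmtops3b, a teleost multiple tissue opsin, which rose in PH fish over both sexes of F1, by 1.32 ± 0.22 on the log2 scale (SE, quasi-likelihood test in edgeR, adjusted p = 0.00727), though not in the model of 48 libraries. It was at 11.4, 11.9, 13.5 and 14.1 CPM in PH females, against 2.91, 3.05, 5.56 and 5.7 CPM in SCA females, without overlap, and at 14.8, 15.9, 20.02 and 21.3 CPM in PH males, against 4.17, 5.67, 9.59 and 13.8 CPM in SCA males, also without overlap. It was chosen after its values were seen, and 0.68% of all genes were called in that comparison. In F0 and F2 the lineages overlapped for tmtops3b in both sexes, as in F0 females, at 1.85 to 18.6 CPM in PH and 1.75 to 3.94 CPM in SCA fish. Between the F1 sexes, 1 of 9 tested IDs of the retinal pigment epithelium list was called, against 1.97% of all genes called higher. RGR, an opsin-like retinal G protein-coupled receptor, rose in females by 0.65 ± 0.17 (SE, edgeR adjusted p = 0.0478). Of the other retinal cell list, 1 of 15 was called, against 1.48% of all genes called lower. POU4F2, a factor of retinal ganglion cells and midbrain neurons, had a log2 difference of -0.39 ± 0.10 (SE, edgeR adjusted p = 0.0423). RGR and POU4F2 both lay near the threshold of 0.05, in a comparison where the calls of members depended on single fish.

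Some symbols close to listed genes fell outside the rule. OPN1SW, a short-wave cone opsin, ranged from 0 to 29.2 CPM and was highest in F0_F_SCA_18, with 0.611 CPM in F0_M_SCA_6. Of the recoverin IDs, RCVRN_9637 was highest in F0_M_SCA_6 at 97.3 CPM and RCVRN_19902 in F0_F_SCA_18 at 32.1 CPM.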
